A study of Mus musculus with 12 samples.

Results

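Heat shock proteins and DnaJ cochaperones are the chaperones that keep other proteins folded, and this account gives their transcripts in mouse hearts after myocardial infarction. The members are the genes whose symbol begins with Hspa, Hspb, Hspd, Hspe, Hsph or Hsp90, or with Dnaja, Dnajb or Dnajc and a digit, without pseudogenes. Of 53801 genes in the files, 87 had such a symbol and 13 of these were pseudogenes, which left 74 members: 29 Hsp genes and 45 DnaJ genes. The rule for members reads symbols only. By name only, 3 members belong to none of the chaperone families: Hspbp1 exchanges nucleotide on HSP70, Hspbap1 binds HSPB1, and Hspb11 is an intraflagellar transport protein.

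As background, HSP70 proteins hold unfolded stretches of other proteins in a cycle driven by ATP, DnaJ proteins bring them their clients and start ATP hydrolysis, and HSP110 proteins reset the cycle. HSP90 acts on receptors and kinases near the end of folding, small HSPs hold unfolded proteins in oligomers without ATP, and HSPD1 with its lid HSPE1 forms the folding chamber of the mitochondrial matrix. Heart muscle is rich in small HSPs that bind filaments of the sarcomere, and ischemia is known to set off both the heat shock response through HSF1 and the unfolded protein response of the endoplasmic reticulum.

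The study sequenced RNA from 12 whole hearts of male C57BL/6N mice, 10 to 14 weeks old at surgery, with 1 heart per library. There were 4 sham hearts, 4 hearts at day 1 and 4 hearts at day 7 after acute myocardial infarction (AMI), made by a lasting ligature on the left anterior descending coronary artery (LAD). The labels list no drug and no altered allele for any group, and they do not give the day on which sham hearts were taken. A whole heart joins infarct, border and remote muscle, so regions cannot be told apart, and in such bulk tissue fewer cells of a type and less RNA per cell cannot be told apart either.

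Total counts per library ran from 23204551 to 32166517, with medians of 24682346 in sham, 30076545 in day 1 and 24865811 in day 7 hearts. Levels are given in the authors' TPM, which allow for gene length. Fold changes come from the counts with edgeR and TMM scaling over 15306 genes tested, and "rose" or "fell" means an adjusted p below 0.05 among all of them. Of the 74 members, 66 passed the filter on low counts. The other 8 (Dnajb3, Dnajb7, Dnajb8, Dnajc5b, Dnajc5g, Dnajc6, Dnajc22 and Hspb9) had at most 13 counts in any heart. Dnajb8 and Dnajc5g had 0 counts in all 12 hearts, where a count of 0 allows up to 0.0933 to 0.129 CPM by counting error alone.

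A few members hold most of the family's transcripts. The 10 most abundant held 75.7% of its summed TPM over the 12 hearts, 14 members had a mean TPM of 100 or greater, and 10 had a mean below 1. Over all hearts the means were 1040 TPM for Hspb1, 1009 TPM for Hspb6, 944 TPM for Hspb7, 840 TPM for Hspa8 and 798 TPM for Hsp90ab1. Hspb1 leads only through the day 1 hearts: its mean was 403 TPM in sham, 2226 TPM at day 1 and 492 TPM at day 7, and the other 4 genes stood above it in sham and at day 7. Summed member TPM was 6396, 6386, 7034 and 6266 in sham hearts 1 to 4, 10636, 11688, 10683 and 10575 in the day 1 hearts, and 7415, 7023, 7157 and 7053 in the day 7 hearts. All 4 day 1 sums lay above every other heart, while the lowest day 7 sum lay just under the highest sham sum.

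The first comparison asks what changed by day 1 after infarction. Against sham, 20 members rose and 11 fell, that is 30.3% and 16.7% of those tested, where 22.0% of all genes tested rose and 19.9% fell. With the further demand of a 2-fold change, 5 members were higher and 1 was lower, against 7.79% and 2.98% of all genes. The median log2 fold change was 0.07 for members and -0.01 for all genes.

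From day 1 to day 7, 3 members rose and 38 fell, or 4.55% and 57.6%, beside 24.2% and 22.8% of all genes tested. Of these, 0 rose and 6 fell by 2-fold or more, beside 8.55% and 2.69% of all genes. The median was -0.36 for members and 0.02 for all genes. Day 7 against sham gave 5 members that rose and 30 that fell, or 7.58% and 45.5%, beside 30.9% and 28.4% of all genes, with 1 higher and 1 lower by 2-fold or more, beside 15.3% and 5.88%. That median was -0.22 for members and 0.03 for all genes. The 3 comparisons share their hearts in pairs, so their values stand side by side and none adds independent weight to another.

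**Figure D1:**
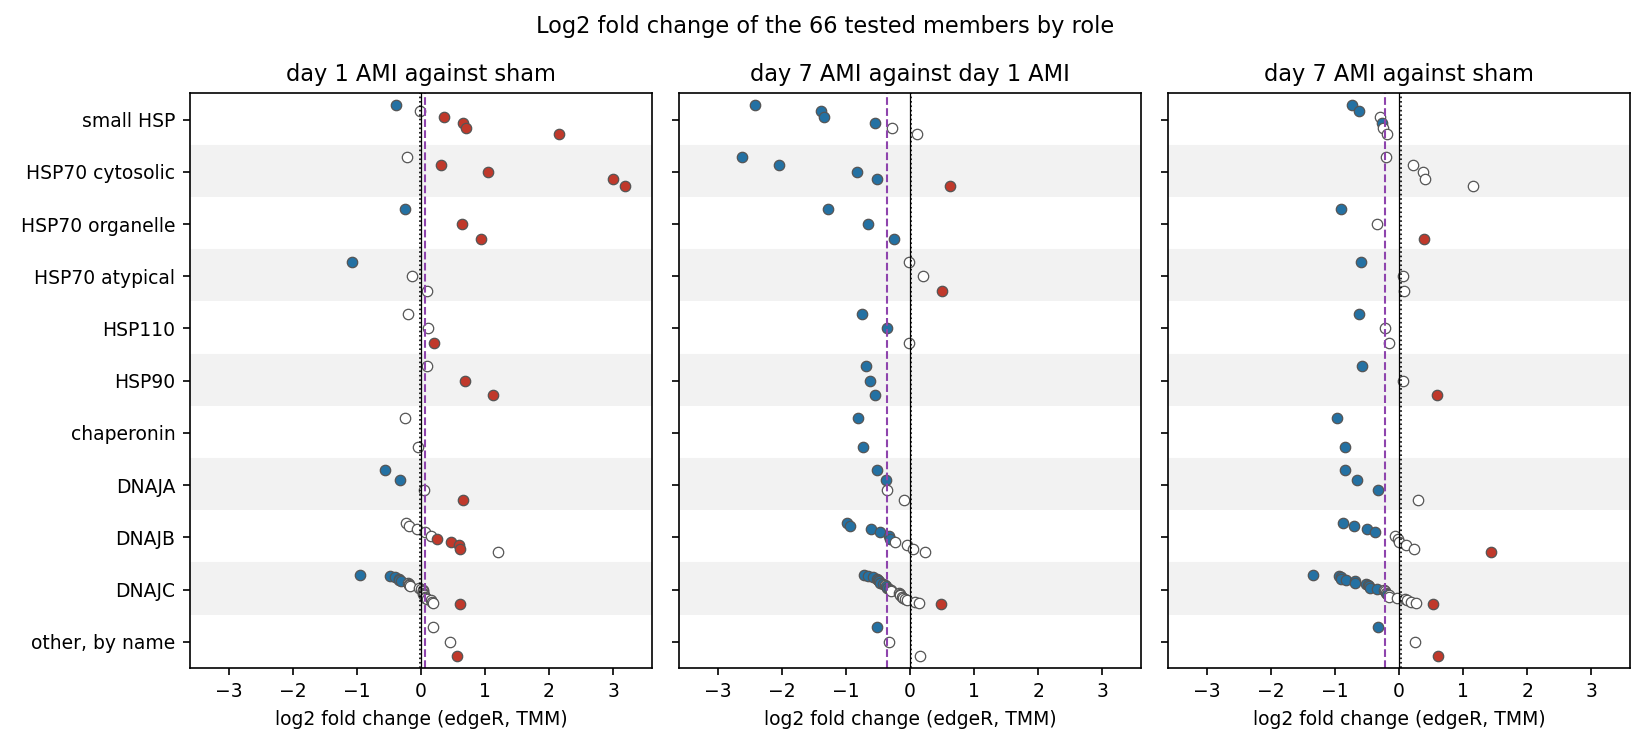
Log2 fold change (edgeR, TMM) of the 66 tested members by role, in the 3 comparisons; each point is a gene, red if it rose, blue if it fell, white if neither, the dotted line is the median of all genes tested and the dashed line that of the members. The members' median is 0.07 at day 1 against sham, -0.36 from day 1 to day 7 and -0.22 at day 7 against sham; the last is 0.18 with library sizes alone and 0.31 in TPM.

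Scaling matters for these hearts. TMM factors were 0.781 to 0.917 in sham, 1.01 to 1.06 in day 1 and 1.1 to 1.17 in day 7 hearts, and transcripts of the mitochondrial genome took 17.9% to 27.4% of sham counts, 12.1% to 15.9% of day 1 counts and 13.2% to 19.2% of day 7 counts. With library sizes alone the median of all genes moved to 0.26, 0.15 and 0.43 in the 3 comparisons, and the share of calls that were higher moved from 52.5%, 51.4% and 52.1% to 85.6%, 68.8% and 83.2%. Members then split into 40 that rose and 4 that fell, 7 and 33, and 27 and 14. Their share of calls that were higher went from 64.5%, 7.32% and 14.3% to 90.9%, 17.5% and 65.9%. In limma on log2(TPM + 1) the all-gene medians were 0.27, 0.19 and 0.47, and members split 38 and 3, 9 and 17, and 32 and 8.

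Relative to the median of all genes, the members' median was 0.08, -0.38 and -0.25 with TMM, 0.07, -0.38 and -0.25 with library sizes alone, and 0.07, -0.31 and -0.16 in log2(TPM + 1). Without a filter on low TPM the last of these was 0.13 above the all-gene median. The lower median from day 1 to day 7 kept its sign under the 7 scalings drawn in the plot of medians by scaling. The sign at day 7 against sham is a statement relative to other genes only. Since TPM was not rescaled in this way, a TPM level can stand higher at day 7 while the TMM fold change is negative.

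**Figure D2:**
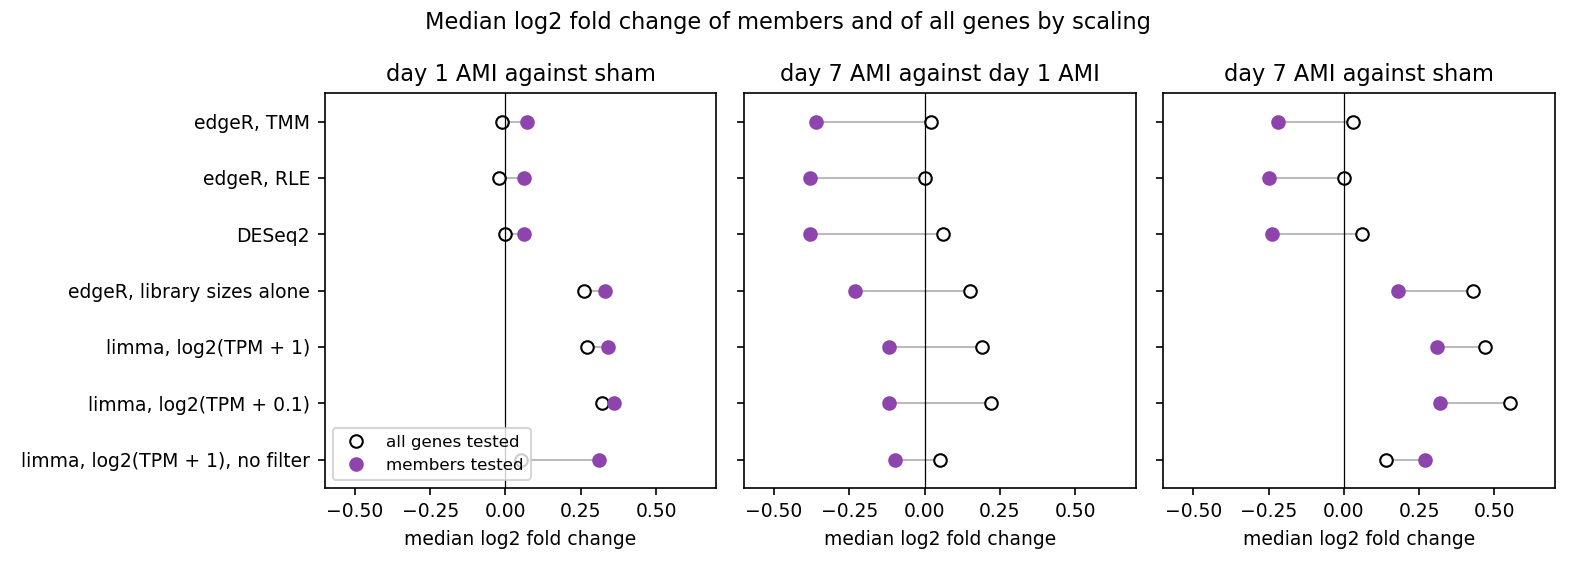
Median log2 fold change of all genes tested (open circles) and of the members tested (filled circles) under 7 scalings, for each of the 3 comparisons. With TMM the members' median is 0.07, -0.36 and -0.22; at day 7 against sham it turns to 0.18 with library sizes alone and to 0.31 in log2(TPM + 1), where the all-gene medians are 0.43 and 0.47.

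Cell markers changed with the same groups. The 8 cardiomyocyte markers summed to 67019, 65300, 73872 and 72461 TPM in sham hearts 1 to 4, to 60432, 52920, 59689 and 59512 TPM at day 1, and to 51697, 48352, 54971 and 52682 TPM at day 7. The sham hearts stood highest and did not overlap the others, and the labelled tissue shows its defining markers in every heart. Of these 8 markers 7 fell at day 1, 5 fell from day 1 to day 7, and 7 fell at day 7 against sham. The most abundant by group mean was Myl2, a myosin light chain, in sham (15739 TPM) and at day 1 (12386 TPM), and Actc1, cardiac actin, at day 7 (13073 TPM).

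The 6 fibroblast markers summed to 568, 572, 471 and 494 TPM in sham hearts, 668, 870, 672 and 899 TPM at day 1, and 6458, 4823, 3555 and 5043 TPM at day 7. By group mean Dcn, which encodes decorin, was the most abundant of them in sham (378 TPM) and at day 1 (290 TPM), and the collagen gene Col3a1 at day 7 (1606 TPM). At day 1, 5 rose and 1 fell, from day 1 to day 7 5 rose, and at day 7 against sham all 6 rose. Macrophage markers, 5 genes led by Lyz2, summed to 256, 346, 224 and 190 TPM in sham hearts, 487, 692, 473 and 634 TPM at day 1, and 1384, 934, 846 and 1245 TPM at day 7. These sums were highest at day 7, with no overlap between groups, and 4, 3 and 5 of the 5 rose in the 3 comparisons. Leukocyte markers, 5 genes with Laptm5 (13.9 TPM) just above Cd52 (13.8 TPM) by mean in sham and Cd52 highest at both later days, summed to 43.9, 61.3, 41.3 and 35.9 TPM in sham, 189, 252, 157 and 176 TPM at day 1, and 307, 181, 182 and 331 TPM at day 7. All 5 rose at both days against sham, and 2 rose from day 1 to day 7.

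Neutrophil markers, 5 genes led by S100a8, summed to 103, 234, 9.46 and 4.2 TPM in sham, 213, 465, 112 and 205 TPM at day 1, and 24.7, 12.9, 25.9 and 174 TPM at day 7. Sham heart 2 and day 7 heart 4 overlapped the day 1 range; 2 of 5 rose at day 1, 3 fell from day 1 to day 7, and 1 rose and 1 fell at day 7 against sham. Endothelial markers, 5 genes with Pecam1 highest by mean in sham and at day 1 and Cdh5 at day 7, summed to 202, 247, 235 and 213 TPM in sham, 224, 241, 230 and 227 TPM at day 1, and 469, 428, 440 and 475 TPM at day 7. Smooth muscle and pericyte markers, 4 genes with Rgs5 highest by mean in sham and Acta2 at both later days, summed to 271, 276, 312 and 221 TPM in sham, 295, 311, 280 and 226 TPM at day 1, and 824, 598, 466 and 513 TPM at day 7. Both vessel lists were highest at day 7: 3 endothelial markers fell at day 1 and 5 rose from day 1 to day 7, with 3 higher than in sham; of the 4 smooth muscle and pericyte markers 1 rose and 1 fell, then 1 rose, then 2 were higher than in sham. Erythroid markers, 5 genes led by Hbb-bs, summed to 3635, 15170, 1617 and 1840 TPM in sham, 1645, 2206, 2542 and 2497 TPM at day 1, and 3190, 1172, 2515 and 4820 TPM at day 7. Sham heart 2 stood far above the rest, and 3 of 5 fell at either day against sham, with 0 calls from day 1 to day 7. In every list 0 markers were at 0 TPM throughout. Marker calls are for TMM, beside the all-gene shares given above. The endothelial marker Emcn was called lower at day 1, with a mean of 30.7 TPM in sham and 33.2 TPM at day 1. The same holds for the cardiomyocyte marker Ryr2, at 224 and 227 TPM. The other markers called lower at day 1 were also lower in mean TPM. The part of these marker changes in the chaperone results was not tested.

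Small HSPs are the most abundant branch in TPM. Hspb1 (ENSMUSG00000004951, plus strand, chr5:135887919-135889563 in GRCm38) encodes a chaperone that holds unfolded proteins and caps actin filaments. Its TPM was 336, 367, 561 and 346 in sham hearts 1 to 4, 2143, 2944, 2309.5 and 1506 in day 1 hearts, and 580.3, 455, 476 and 457 in day 7 hearts. Every day 1 heart stood above every other heart, and the day 7 and sham ranges overlapped. The log2 fold change was 2.16 (SE 0.198, adjusted p = 8.16e-06) at day 1 against sham, or 4.47-fold higher, and -2.41 (SE 0.2, adjusted p = 8.25e-07) from day 1 to day 7. At day 7 against sham it was -0.25 (SE 0.19, adjusted p = 0.275), which turned to 0.14 with library sizes alone and 0.31 in log2(TPM + 1), with no call in either. Hspb1 shares 44% of its 100-base stretches with the pseudogene Hsp25-ps1. How the raw counts treat reads with more than 1 match is not stated.

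Hspb7, a heart and muscle chaperone that binds filamin C, stood at 663, 702, 758 and 723 TPM in sham, 1437, 1693, 1335 and 1325 TPM at day 1, and 649, 593, 814 and 637 TPM at day 7. Day 1 hearts stood apart above both other groups, which overlapped in TPM. It rose by a log2 fold change of 0.70 (SE 0.121, adjusted p = 0.000485), then changed by -1.34 (SE 0.122, adjusted p = 2e-06). Against sham the day 7 change was -0.63 (SE 0.121, adjusted p = 0.000436), but -0.23 (adjusted p = 0.0918) with library sizes alone and -0.09 (adjusted p = 0.509) in log2(TPM + 1). Hspb2, which forms complexes with HSPB3 in muscle, stood at 112, 166, 146 and 137 TPM in sham, 248, 282, 259.9 and 298 TPM at day 1, and 124, 108, 137 and 123 TPM at day 7. Again the day 1 hearts stood apart and the others overlapped. Its log2 fold changes were 0.66 (SE 0.0946, adjusted p = 0.000145), -1.39 (SE 0.0961, adjusted p = 1.59e-07) and -0.73 (SE 0.0956, adjusted p = 1.63e-05), and the last was -0.18 (adjusted p = 0.215) in log2(TPM + 1). Hspb2 overlaps Cryab by 252 bases on the opposite strand, 18.4% of its stretches, and whether the counts kept the strand is not stated.

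The small HSPs did not all share this course. Hspb6, a chaperone that protein kinase A phosphorylates in muscle, stood at 904, 671, 1001 and 961 TPM in sham, 1198, 1106, 1169 and 888 TPM at day 1, and 899.96, 1208, 1086 and 1015 TPM at day 7. The 3 groups overlapped throughout and it met the threshold in none of the 3 comparisons; its day 7 change against sham was -0.30 (adjusted p = 0.11) with TMM, 0.10 with library sizes alone, 0.26 in log2(TPM + 1), and with TMM ran from -0.44 (adjusted p = 0.0113), without sham heart 2, to -0.23 with single hearts left out. Its day 1 value of -0.02 also turned, to 0.26 and 0.31 in the same scalings. Hspb8, which works with BAG3 to hand damaged filament proteins to autophagy, stood at 359.7, 342, 389 and 389 TPM in sham, 341, 332, 362 and 384 TPM at day 1, and 425, 465, 480.3 and 431 TPM at day 7. In TPM its day 7 hearts stood above all others.

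With TMM, Hspb8 fell at day 1 (log2 fold change -0.38, SE 0.0922, adjusted p = 0.00446) and at day 7 against sham (-0.27, SE 0.0921, adjusted p = 0.0205). From day 1 to day 7 it had no call with TMM (0.11), but 0.24 (adjusted p = 0.0286) with library sizes alone and 0.34 (adjusted p = 0.00604) in log2(TPM + 1). Both falls depend on the scaling: at day 7 it was 0.13 with library sizes alone and 0.28 in log2(TPM + 1), where it passed the threshold as higher, and at day 1 it was -0.11 and -0.06 with no call. Leaving out sham heart 4, day 7 heart 1 or day 7 heart 4 also ended the day 7 call, at -0.24, -0.24 and -0.23. Of the 6 small HSPs tested, 4 rose and 1 fell at day 1, 0 rose and 4 fell from day 1 to day 7, and 0 rose and 3 fell at day 7 against sham, with medians of 0.51, -0.94 and -0.29, beside -0.01, 0.02 and 0.03 for all genes; the last turned to 0.12 with library sizes alone and 0.27 in log2(TPM + 1). The shares that rose and fell were 66.7% and 16.7%, 0% and 66.7%, and 0% and 50%, against 22.0% and 19.9%, 24.2% and 22.8%, and 30.9% and 28.4% of all genes. Summed over the branch, TPM was 2260 to 2870 in sham, 4429 to 6380 at day 1 and 2682 to 3010 at day 7.

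**Figure D3:**
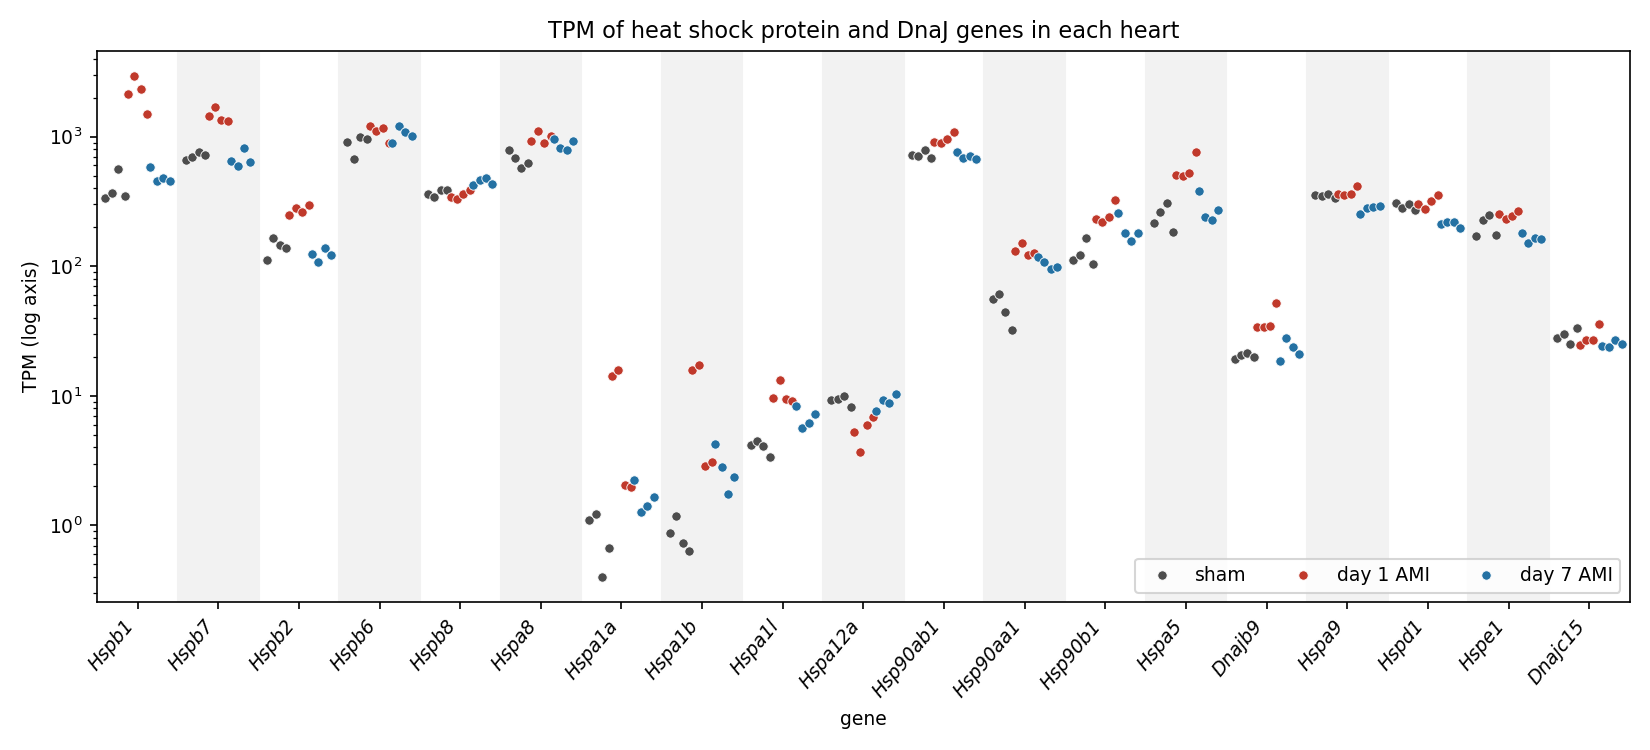
TPM of 19 members in each heart on a log axis, sham in grey, day 1 AMI in red and day 7 AMI in blue; each point is a heart. The 4 day 1 hearts stand above the other 8 for Hspb1, Hspb7 and Hspb2, while Hspa1a and Hspa1b divide the day 1 hearts into a pair at 14.1 to 17.4 TPM and a pair at 1.99 to 3.09 TPM.

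Of the 5 cytosolic HSP70 genes 4 rose and 0 fell at day 1, 1 rose and 4 fell from day 1 to day 7, and 0 rose and 0 fell at day 7 against sham, where library sizes alone and log2(TPM + 1) each gave 3 that rose. That is 80% and 0%, 20% and 80%, and 0% and 0%, against 22.0% and 19.9%, 24.2% and 22.8%, and 30.9% and 28.4% of all genes, and the medians were 1.04, -0.83 and 0.38, beside -0.01, 0.02 and 0.03. In log2(TPM + 1) the falls from day 1 to day 7 numbered 2. With TMM Hspa2, read after its values were seen, had no call at day 1 against sham (-0.22). It rose from day 1 to day 7 (0.63, adjusted p = 0.0184). Hspa8 encodes the constant form that does most routine folding, and stood at 785, 679.6, 571 and 621 TPM in sham, 926, 1099, 887 and 1009 TPM at day 1, and 965, 821, 782 and 931 TPM at day 7. Day 1 hearts stood above sham, and day 7 hearts lay between with overlap on both sides. Its log2 fold changes were 0.31 (SE 0.112, adjusted p = 0.0401), -0.51 (SE 0.112, adjusted p = 0.00189) and -0.21 (SE 0.112, adjusted p = 0.124); the last turned to 0.20 with library sizes alone and 0.40 (adjusted p = 0.00809) in log2(TPM + 1), where the second was -0.16 (adjusted p = 0.275). The day 1 call is thin: it was lost without sham heart 2, 3 or 4 (0.29, 0.25 and 0.27), without day 1 heart 1, 2 or 4 (0.33, 0.25 and 0.30) and without day 7 heart 4 (0.31, adjusted p = 0.0519), and in the fit on these 2 groups only (0.31, adjusted p = 0.0636).

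Hspa1a and Hspa1b, the classic stress-induced HSP70 genes, lie side by side on chromosome 17 with nearly the same coding sequence. Hspa1a stood at 1.1, 1.23, 0.4 and 0.67 TPM in sham, 14.1, 15.9, 2.06 and 1.99 TPM at day 1, and 2.23, 1.26, 1.42 and 1.65 TPM at day 7. Hspa1b stood at 0.88, 1.18, 0.73 and 0.64 TPM in sham, 15.8, 17.4, 2.88 and 3.09 TPM at day 1, and 4.24, 2.82, 1.74 and 2.35 TPM at day 7. For both genes day 1 hearts 1 and 2 stood far above hearts 3 and 4, which were themselves above every sham heart and within the day 7 range. Since 49.9% of the 100-base stretches of Hspa1b occur in Hspa1a, their counts were also summed: 100, 133, 54 and 68 in sham, 1540, 2154, 298 and 298 at day 1, and 340, 174, 145 and 185 at day 7. The sum showed the same pair of high hearts.

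Hspa1a rose 7.98-fold at day 1 (log2 fold change 3.00, SE 0.639, adjusted p = 0.00213) and fell by 2.62 on the log2 scale from day 1 to day 7 (SE 0.609, adjusted p = 0.00298). In log2(TPM + 1) these were 1.93 and -1.41, and the second had no call there without the filter (adjusted p = 0.0918). Hspa1b rose 9.15-fold (log2 fold change 3.19, SE 0.571, adjusted p = 0.000643) and fell by 2.05 (SE 0.518, adjusted p = 0.00514), but in log2(TPM + 1) the first was 2.18 and the second missed the threshold at -1.18 (adjusted p = 0.0502), as it did without the filter (adjusted p = 0.119) and in log2(TPM + 0.1) at -1.38 (adjusted p = 0.0654). The summed counts gave 3.10 (SE 0.589, adjusted p = 0.000973) and -2.30 (SE 0.55, adjusted p = 0.00359), with 0.80 (SE 0.59, adjusted p = 0.258) at day 7 against sham. For Hspa1b the day 7 value against sham was 1.15 (SE 0.578, adjusted p = 0.102), but 1.54 (adjusted p = 0.0294) with library sizes alone and 1.55 (adjusted p = 0.0267) in log2(TPM + 0.1). Fitted on these 2 groups only it was 1.13 (adjusted p = 0.00517), so the call also changes with no change of scaling. Hspa1a was 0.38 (SE 0.662, adjusted p = 0.642).

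Hspa1l, a close relative best known from testis, stood at 4.16, 4.51, 4.13 and 3.35 TPM in sham, 9.58, 13.3, 9.42 and 9.11 TPM at day 1, and 8.38, 5.68, 6.19 and 7.23 TPM at day 7. The 3 groups did not overlap in TPM, with day 1 highest and sham lowest. Its log2 fold change was 1.04 (SE 0.151, adjusted p = 0.000148) at day 1 and -0.83 (SE 0.148, adjusted p = 0.000444) from day 1 to day 7. The day 7 value against sham was 0.22 (adjusted p = 0.236), but 0.62 (adjusted p = 0.00344) with library sizes alone and 0.64 (adjusted p = 0.00116) in log2(TPM + 1). The antisense gene Gm10501 covers 1778 bases of Hspa1l, 70.8% of its stretches, so without the strand these reads cannot be assigned to 1 of the pair.

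HSP90 has an inducible cytosolic form, Hsp90aa1, a constant form, Hsp90ab1, and a form in the endoplasmic reticulum, Hsp90b1. Hsp90aa1 stood at 55.9, 61.5, 44.7 and 32.3 TPM in sham, 130.03, 152, 121 and 126 TPM at day 1, and 119, 107, 95.9 and 99.1 TPM at day 7. Hsp90ab1 stood at 719, 715, 783 and 679.7 TPM in sham, 917, 890.5, 963 and 1090.5 TPM at day 1, and 766, 679, 711 and 667 TPM at day 7. Hsp90aa1 separated all 3 groups, while for Hsp90ab1 day 7 and sham overlapped below day 1. Hsp90aa1 had log2 fold changes of 1.12 (SE 0.152, adjusted p = 0.000103), -0.54 (SE 0.151, adjusted p = 0.00941) and 0.59 (SE 0.151, adjusted p = 0.00402), and the second was -0.32 (adjusted p = 0.135) in log2(TPM + 1). Hsp90ab1 had 0.10 (SE 0.0897, adjusted p = 0.395), -0.68 (SE 0.0901, adjusted p = 4.35e-05) and -0.58 (SE 0.09, adjusted p = 7.6e-05). Its first value was 0.38 (adjusted p = 0.00258) with library sizes alone and 0.41 (adjusted p = 0.0027) in log2(TPM + 1), and its last -0.18 (adjusted p = 0.0831) and -0.04 (adjusted p = 0.724).

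A ratio within each heart needs no scaling between hearts. The log2 ratio of Hsp90aa1 TPM to Hsp90ab1 TPM was -3.68, -3.54, -4.13 and -4.40 in sham, -2.82, -2.55, -2.99 and -3.12 at day 1, and -2.69, -2.66, -2.89 and -2.75 at day 7. Every AMI heart had a higher ratio than every sham heart, and day 1 and day 7 overlapped. The mean rose from -3.94 ± 0.40 (SD, n = 4) in sham to -2.87 ± 0.24 (SD, n = 4) at day 1, a difference of 1.07 (exact two-sided permutation p = 0.0286, adjusted over 3 comparisons, 0.0429). At day 7 it was -2.75 ± 0.10 (SD, n = 4), 1.19 above sham (exact two-sided permutation p = 0.0286, adjusted, 0.0429) and 0.12 above day 1 (exact two-sided permutation p = 0.4, adjusted, 0.4). With 4 hearts against 4 the smallest p is 0.0286, and with any heart left out it is 0.0571, so no such subset can pass; the differences then ran from 0.91, without sham heart 4, to 1.20, without sham heart 2, at day 1, and from 1.04 to 1.32 without the same hearts at day 7. The pseudogene Gm12346 shares 31.6% of the stretches of Hsp90aa1. The ratio shows unequal change of the pair, not that either form held still.

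**Figure D4:**
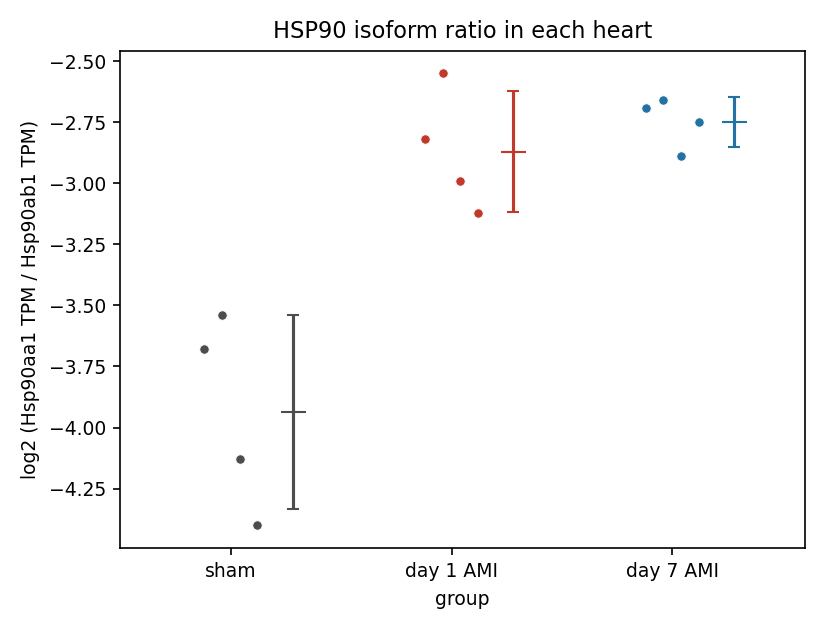
Log2 ratio of Hsp90aa1 TPM to Hsp90ab1 TPM in each heart (points) with the mean and SD of each group (4 hearts a group). Sham hearts lie between -4.40 and -3.54, and the 8 AMI hearts between -3.12 and -2.55.

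Dnajb1, the main stress-induced DnaJ partner of HSP70, stood at 6.22, 9.61, 5.72 and 5.63 TPM in sham, 11.9, 14.4, 9.83 and 10.7 TPM at day 1, and 12.6, 11.7, 11 and 11.8 TPM at day 7. All AMI hearts stood above all sham hearts in TPM, sham heart 2 closest to them. Its log2 fold change was 0.47 (SE 0.148, adjusted p = 0.0201) at day 1, lost without sham heart 3 (0.39), sham heart 4 (0.40) or day 1 heart 2 (0.36), and 0.24 (SE 0.149, adjusted p = 0.176) at day 7 against sham, where library sizes alone gave 0.64 (adjusted p = 0.00363), log2(TPM + 1) gave 0.74 (adjusted p = 0.000803), and leaving out sham heart 2 gave 0.41 (adjusted p = 0.0139), the highest of a range that began at 0.15 with single hearts left out. Between day 1 and day 7 it was -0.23 (adjusted p = 0.213), and 0.02 in log2(TPM + 1). Dnaja1, a cytosolic DnaJ that carries clients to HSP70, was picked for mention after its values were seen: it stood at 18.1 to 27.1 TPM in sham, 36.2 to 55.2 TPM at day 1 and 36 to 47.3 TPM at day 7, and rose at day 1 (log2 fold change 0.65, SE 0.138, adjusted p = 0.00202).

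Hsph1, the stress-induced HSP110, stood at 25.4, 23.8, 32.2 and 16.6 TPM in sham, 32.6, 24.8, 32.8 and 35.7 TPM at day 1, and 24, 22.5, 21.2 and 22.9 TPM at day 7. Sham hearts spread across most of the range, and day 7 hearts lay below day 1 hearts. Its log2 fold change was 0.11 (SE 0.151, adjusted p = 0.573) at day 1, -0.74 (SE 0.152, adjusted p = 0.00128) from day 1 to day 7 and -0.63 (SE 0.153, adjusted p = 0.00275) at day 7 against sham, the last -0.23 (adjusted p = 0.223) with library sizes alone and -0.07 (adjusted p = 0.706) in log2(TPM + 1). The call from day 1 to day 7 was lost in log2(TPM + 0.1), at -0.46 (adjusted p = 0.0554), and in log2(TPM + 1) without the filter, at -0.44 (adjusted p = 0.0854). Its start holds a heat shock element, the motif bound by HSF1, searched as GAA, TTC and GAA each 2 bases apart on both strands. It is printed because HSF1, the master factor of the heat shock response, binds this element, as a 30-base site in RefSeq sequence (GRCm38.p6, minus strand, chr5:149636279-149636308) with the match in capitals. The RefSeq promoter table used here gives 2 start sites for Hsph1. The match lies 15 to 27 bases after 1 of them and 36 to 48 after the other, in an annotated exon of the gene.
Hsph1: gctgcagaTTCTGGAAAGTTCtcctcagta

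Together the 7 stress-induced cytosolic members (Hspa1a, Hspa1b, Hsph1, Hsp90aa1, Hspb1, Dnajb1 and Dnaja1) gave 6 that rose and 0 that fell at day 1, 0 and 5 from day 1 to day 7, and 1 and 1 at day 7 against sham. These are 85.7% and 0%, 0% and 71.4%, and 14.3% and 14.3%, beside 22.0% and 19.9%, 24.2% and 22.8%, and 30.9% and 28.4% of all genes tested. This list was made with earlier results known; without Dnaja1, 5 of 6 rose at day 1. The medians of the 7 were 1.12, -0.74 and 0.30, beside -0.01, 0.02 and 0.03 for all genes; these kept their sign under the 7 scalings, but at day 7 against sham the counts became 4 and 0 with library sizes alone. Their summed TPM was 449, 492, 664 and 420 in sham, 2396, 3215, 2514 and 1738 at day 1, and 789, 639, 643 and 639 at day 7. Hspb1 made up 79.5% of it in sham, 90.3% at day 1 and 72.6% at day 7. The day 1 hearts stood apart, and sham heart 3 reached into the day 7 range.

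Hspa5 encodes BiP, the HSP70 of the endoplasmic reticulum that folds secreted proteins and holds the stress sensors silent. It stood at 216, 263, 305 and 184 TPM in sham, 504, 496, 524 and 765 TPM at day 1, and 377.5, 238, 227 and 272 TPM at day 7. Day 1 hearts stood apart, heart 4 highest, and day 7 overlapped sham. Its log2 fold change was 0.94 (SE 0.179, adjusted p = 0.00105) at day 1 and -1.28 (SE 0.181, adjusted p = 6.87e-05) from day 1 to day 7. At day 7 against sham it was -0.35 (SE 0.178, adjusted p = 0.107), which turned to 0.05 with library sizes alone and 0.20 in log2(TPM + 1). With TMM it passed the threshold as lower without sham heart 4 (-0.46, adjusted p = 0.0457) or day 7 heart 1 (-0.53, adjusted p = 0.0128), and with other hearts left out it went up to -0.24. Hsp90b1, the HSP90 that folds integrins and Toll-like receptors, stood at 111, 122, 165 and 104 TPM in sham, 233, 218, 238 and 323 TPM at day 1, and 258, 179, 156 and 182 TPM at day 7.

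Day 1 stood above sham for Hsp90b1 as well, and day 7 overlapped both. Hsp90b1 had log2 fold changes of 0.69 (SE 0.165, adjusted p = 0.00426), -0.63 (SE 0.164, adjusted p = 0.00612) and 0.06 (SE 0.164, adjusted p = 0.771); the second was -0.39 (adjusted p = 0.0976) and the third 0.62 (adjusted p = 0.00862) in log2(TPM + 1). Dnajb9, the DnaJ that recruits BiP to the sensor IRE1, stood at 19.3, 20.6, 21.4 and 20.1 TPM in sham, 33.8, 33.8, 34.6 and 52.2 TPM at day 1, and 18.6, 28.1, 23.8 and 21 TPM at day 7. Its day 1 hearts stood apart, and the other groups overlapped. The log2 fold change was 0.60 (SE 0.143, adjusted p = 0.00439), then -0.98 (SE 0.144, adjusted p = 9.73e-05). The day 7 value against sham, -0.38 (SE 0.144, adjusted p = 0.0334), turned to 0.02 with library sizes alone and 0.15 in log2(TPM + 1). That call was also lost without sham heart 1, 3 or 4 (-0.37, -0.38 and -0.38) and without day 7 heart 1 or 4 (-0.29 and -0.33).

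Hspa13, an HSP70 relative on microsomes, stood at 4.91 to 5.33 TPM in sham, 9 to 11.4 TPM at day 1 and 9.33 to 11.1 TPM at day 7, so both AMI groups stood about level above sham. It rose at day 1 (log2 fold change 0.64, SE 0.0953, adjusted p = 0.00018) and at day 7 against sham (0.39, SE 0.0955, adjusted p = 0.00278). Its fall from day 1 to day 7 (-0.25, SE 0.0937, adjusted p = 0.0404) was -0.13 with library sizes alone and 0.00 in log2(TPM + 1), with no call, and was lost without day 1 heart 1, 2 or 4 (-0.25, -0.25 and -0.21) or day 7 heart 1, 3 or 4 (-0.26, -0.24 and -0.20), or in edgeR without the filter (-0.27, adjusted p = 0.0596). The list for this compartment also holds Dnajb11, Dnajc3, Dnajc10 and Dnajc1, whose values were read after the comparison was seen: Dnajb11 and Dnajc3 each had a day 1 change of 0.61 (adjusted p = 0.00187 and 0.00278), Dnajc10, a disulfide reductase, rose only later (0.49 from day 1 to day 7, adjusted p = 0.000368), and Dnajc1 met the threshold in none of the 3 comparisons.

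Dnajb12 and Dnajb14, also membrane proteins of this compartment, are not in the list. Neither rose at day 1 (-0.18, adjusted p = 0.101, and 0.16, adjusted p = 0.287), so 6 of 10 rose with them. The list need not be complete, and its shares hold for its own members only. Outside it Dnajc25 fell at day 1, and Dnajc14, Dnajc16 and Dnajc18 had no call there. Of the 8 members listed 6 rose and 0 fell at day 1, 1 rose and 6 fell from day 1 to day 7, and 2 rose and 1 fell at day 7 against sham. As shares these are 75% and 0%, 12.5% and 75%, and 25% and 12.5%, where all genes gave 22.0% and 19.9%, 24.2% and 22.8%, and 30.9% and 28.4%. The medians were 0.61, -0.48 and 0.09, beside -0.01, 0.02 and 0.03 for all genes, with the same signs under the 7 scalings; from day 1 to day 7 the falls numbered 4 with library sizes alone and 2 in log2(TPM + 1), and at day 7 against sham 6 rose in both. Summed TPM was 419, 484, 568 and 377 in sham, 892, 873, 917 and 1305 at day 1, and 805, 567, 515 and 600 at day 7. Day 1 hearts stood above all others and day 7 heart 1 was the next highest, with the highest macrophage sum, 1384 TPM, and the highest fibroblast sum, 6458 TPM; the part of these was not tested.

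The promoters of members were searched for the endoplasmic reticulum stress element (ERSE), written CCAAT, 9 bases of any kind, then CCACG, on both strands. The promoter table used here, made from RefSeq (GRCm38.p6), holds windows from 250 bases before to 50 after the start site, and 60 of the 74 members were matched in it. The element was in 3 of these 60 genes (5%), Hspa5, Hsp90b1 and Dnajc3, and in 37 of all 27025 genes in the table (0.137%). Each is printed as a 30-base site with the match in capitals: Hspa5 on the plus strand at chr2:34772020-34772049, Dnajc3 on the plus strand at chr14:118937822-118937851, and Hsp90b1 on the minus strand at chr10:86705632-86705661 and chr10:86705527-86705556. In Hsp90b1 the element occurs once in each direction, so the match nearer the start reads as the reverse complement.
Hspa5: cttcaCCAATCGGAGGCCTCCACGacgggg
Dnajc3: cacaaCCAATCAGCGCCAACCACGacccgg
Hsp90b1, first: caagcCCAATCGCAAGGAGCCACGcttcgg
Hsp90b1, second: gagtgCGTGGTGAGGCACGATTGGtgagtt
The match begins 65 bases before the start of Hspa5, 105 before that of Dnajc3, and 212 and 107 before that of Hsp90b1. The match of Hspa5 lies in an annotated exon of the gene. A match is a string of letters and was not shown to bind a factor here. The element is named for the stress of this compartment, so its presence in genes of the compartment adds no independent weight. The shares were not tested.

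**Figure D5:**
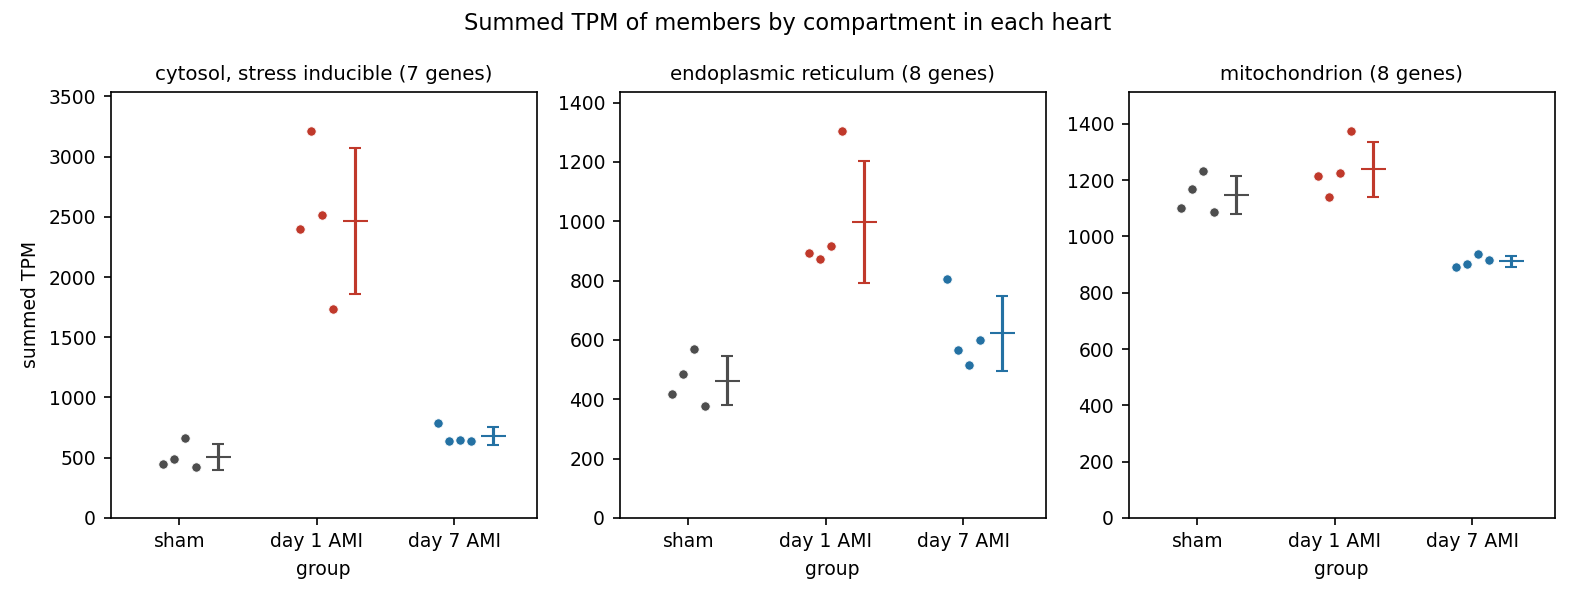
Summed TPM of members in the stress-induced cytosolic, endoplasmic reticulum and mitochondrial lists (7, 8 and 8 genes) in each heart, with the mean and SD of 4 hearts a group. Day 1 hearts stand above all others in the first and second panel; in the third the day 7 hearts, 891 to 937 TPM, lie below the sham hearts, 1086 to 1232 TPM.

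Hspa9 encodes mortalin, the HSP70 of the mitochondrial matrix that pulls proteins in through the import pore. It stood at 355, 349.6, 362 and 338 TPM in sham, 362, 353, 362 and 415 TPM at day 1, and 252, 284, 288 and 289.5 TPM at day 7. Day 7 hearts stood below all others, while day 1 and sham overlapped. It fell from day 1 to day 7 (log2 fold change -0.66, SE 0.0843, adjusted p = 3.16e-05) and at day 7 against sham (-0.90, SE 0.0846, adjusted p = 9.52e-07). The day 1 value of -0.24 (SE 0.084, adjusted p = 0.0343) turned to 0.04 with library sizes alone and 0.08 in log2(TPM + 1). Its call was lost without sham heart 1, 3 or 4 (-0.19, -0.24 and -0.25) or day 1 heart 1, 2 or 3 (-0.23, -0.21 and -0.23), and also in edgeR without the filter (-0.22, adjusted p = 0.112) or on these 2 groups only (-0.24, adjusted p = 0.0519).

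Hspd1 and Hspe1, the chamber and lid of the matrix chaperonin, are neighbours on opposite strands of chromosome 1 with 112 bases of exon in common. Hspd1 stood at 305, 283, 305 and 272 TPM in sham, 303, 275, 317 and 356 TPM at day 1, and 211, 218, 220.4 and 198 TPM at day 7. Hspe1 stood at 172, 229, 249 and 173 TPM in sham, 251, 232, 243 and 267 TPM at day 1, and 181, 151, 164 and 162 TPM at day 7. Day 7 hearts were lowest for Hspd1 without overlap, and for Hspe1 they overlapped sham hearts 1 and 4.

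Between day 1 and day 7 Hspd1 fell by 0.73 on the log2 scale (SE 0.105, adjusted p = 8.38e-05) and Hspe1 by 0.81 (SE 0.0942, adjusted p = 1.39e-05). Against sham the day 7 values were -0.97 (SE 0.106, adjusted p = 3.23e-06) for Hspd1 and -0.85 (SE 0.0945, adjusted p = 3.74e-06) for Hspe1. The Hspe1 call was lost in log2(TPM + 0.1), at -0.31 (adjusted p = 0.0516), and in log2(TPM + 1) without the filter, at -0.30 (adjusted p = 0.0665). At day 1 neither met the threshold, with -0.24 (adjusted p = 0.0786) for Hspd1 and -0.04 (adjusted p = 0.762) for Hspe1. These turned to 0.04 and 0.23 with library sizes alone and to 0.10 and 0.29 in log2(TPM + 1). With TMM Hspd1 passed it as lower without sham heart 2 (-0.30, adjusted p = 0.0403) or day 1 heart 4 (-0.29, adjusted p = 0.0478), and with other hearts left out it went up to -0.16. Hspd1 shares 22.4% of its stretches with the pseudogene Hspd1-ps3.

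The genes of the pair lie head to head. The heat shock element described for Hsph1 was found in 4 of the 60 member genes (6.67%), Dnajb6, Hspd1, Hspe1 and Hsph1, and in 179 of all 27025 genes in the table (0.662%). Hspd1 and Hspe1 share the same letters at chr1:55088059-55088076, where 2 matches, 1 on each strand, overlap. The 30-base site (GRCm38.p6, minus strand, chr1:55088053-55088082) is printed because both genes lie beside it, with the joined match in capitals.
Hspd1: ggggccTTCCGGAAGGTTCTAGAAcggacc
The match begins 144 bases before 1 of the 2 start sites of Hspd1 and lies in an annotated exon of that gene. Read the other way, it begins 89 bases before the start site of Hspe1. Nothing about HSF1 follows from a match or from its absence in other members.

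Dnajc19, the DnaJ of the inner membrane motor, stood at 102 to 135 TPM in sham, 104 to 128 TPM at day 1 and 93.2 to 101 TPM at day 7. It fell at each step, by -0.40 (SE 0.0796, adjusted p = 0.00143), -0.42 (SE 0.08, adjusted p = 0.000693) and -0.82 (SE 0.0804, adjusted p = 1.34e-06) on the log2 scale. Dnajc15, its paralog, stood at 25 to 33.1 TPM in sham, 24.7 to 36.1 TPM at day 1 and 23.7 to 27.1 TPM at day 7, with -0.48 (SE 0.0769, adjusted p = 0.000294), -0.46 (SE 0.0772, adjusted p = 0.000265) and -0.94 (SE 0.0777, adjusted p = 3.03e-07). In TPM the groups of Dnajc15 overlap, and in log2(TPM + 1) its values were -0.03, -0.18 and -0.21 with no call. Dnaja3, a matrix DnaJ also needed for mitochondrial DNA upkeep, stood at 87.5 to 92.7 TPM in sham, 81 to 96.7 TPM at day 1 and 66.7 to 79.1 TPM at day 7. Its log2 fold changes were -0.33 (SE 0.0821, adjusted p = 0.00543), -0.51 (SE 0.0823, adjusted p = 0.000211) and -0.84 (SE 0.0827, adjusted p = 1.36e-06). The day 1 calls of Dnajc19 and Dnaja3 were lost with library sizes alone, at -0.13 and -0.06, and in log2(TPM + 1), at -0.09 and -0.01, and so was the second call of Dnajc19 in log2(TPM + 1), at -0.25 (adjusted p = 0.0624).

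Of the 8 mitochondrial members 0 rose and 4 fell at day 1, 0 rose and 8 fell from day 1 to day 7, and 0 rose and 8 fell at day 7 against sham. Falls were thus 50%, 100% and 100% of the list, beside 19.9%, 22.8% and 28.4% of all genes tested, of which 22.0%, 24.2% and 30.9% rose. This list too need not be complete, and its shares hold for its own members only. Dnajc4 and Dnajc28 are not in it. From day 1 to day 7 Dnajc4 fell (-0.38, adjusted p = 0.00254) and Dnajc28 had no call (-0.39, adjusted p = 0.116). The list medians were -0.24, -0.51 and -0.85, beside -0.01, 0.02 and 0.03 for all genes; the first turned to 0.04 with library sizes alone and 0.09 in log2(TPM + 1), while the others kept their sign, with 7 falls at day 7 against sham with library sizes alone and 5 falls and 1 rise in log2(TPM + 1). Relative to the median of all genes the last was -0.87 with TMM, -0.87 with library sizes alone and -0.77 in log2(TPM + 1). Summed TPM was 1102, 1168, 1232 and 1086 in sham, 1214, 1142, 1225 and 1376 at day 1, and 891, 903, 937 and 916 at day 7. The day 7 hearts stood below all others. Cardiomyocytes, which are rich in mitochondria, lost marker level in the same hearts: their 8 markers had a median of -1.15 at day 7 against sham, 7 of 8 fell, and none was at 0; their part in this result was not tested.

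Other members showed further courses. Hspa12a, a distant HSP70 relative, stood at 9.23, 9.4, 9.95 and 8.25 TPM in sham, 5.24, 3.67, 5.99 and 6.87 TPM at day 1, and 7.63, 9.24, 8.87 and 10.4 TPM at day 7. Its day 1 hearts stood below all others. With TMM it was the only member with a 2-fold fall at day 1 (log2 fold change -1.08, SE 0.15, adjusted p = 0.000115) and then rose (0.50, SE 0.149, adjusted p = 0.014). With library sizes alone, in the limma fits on TPM or without day 1 heart 2, 0 members fell 2-fold at day 1. Without sham heart 2 or day 1 heart 4, 2 did. Hspa12a was called lower at day 1 in all 21 alternatives, with values up to -0.69. Against sham it was -0.59 at day 7 (SE 0.148, adjusted p = 0.00351), but -0.18 (adjusted p = 0.3) with library sizes alone and -0.03 (adjusted p = 0.868) in log2(TPM + 1).

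Dnajc28, a DnaJ whose role is little known, stood at 25, 24.8, 29.1 and 27.4 TPM in sham, 13.8, 12.4, 17.7 and 27.4 TPM at day 1, and 13.8, 16.3, 18.2 and 14.4 TPM at day 7. Day 1 heart 4 stood with the sham hearts, and the other AMI hearts lay below. Its log2 fold change was -0.95 (SE 0.196, adjusted p = 0.0017) at day 1 and -1.34 (SE 0.199, adjusted p = 4.94e-05) at day 7 against sham, the last -0.73 in log2(TPM + 1). From day 1 to day 7 it was -0.39 (adjusted p = 0.116), going to -0.54 (adjusted p = 0.0288) without day 1 heart 2 and to -0.12 without day 1 heart 4, which is the heart that stood with sham. Dnajb13, an axonemal protein of sperm and cilia, was near the detection limit at 0 to 0.27 TPM in sham, 0.15 to 0.33 TPM at day 1 and 0.26 to 0.58 TPM at day 7, with overlap. Its rise at day 7 against sham (log2 fold change 1.43, SE 0.585, adjusted p = 0.0479) rests on at most 19 counts and was lost with any heart left out but sham heart 1, sham heart 2 or day 7 heart 4. The largest drops were to 1.03 without sham heart 3 (adjusted p = 0.103) and to 1.11 without day 7 heart 2 (adjusted p = 0.146). DESeq2 (1.44, adjusted p = 0.0563), RLE factors (1.41, adjusted p = 0.051) and edgeR without the filter (1.43, adjusted p = 0.0705) made no call either, and log2(TPM + 1) without the filter gave 0.32.

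Among DnaJ members, Dnaja2, the cytosolic partner of Hspa8, stood at 124 to 139.7 TPM in sham, 98.1 to 130 TPM at day 1 and 123 to 134 TPM at day 7. It fell at day 1 (log2 fold change -0.56, SE 0.0815, adjusted p = 0.000161) and stayed lower at day 7 against sham (-0.66, SE 0.0817, adjusted p = 1.02e-05), the last -0.05 (adjusted p = 0.657) in log2(TPM + 1). Its value of -0.10 from day 1 to day 7 turned to 0.02 with library sizes alone and 0.22 in log2(TPM + 1). Dnajb2, which steers ubiquitinated clients, stood at 53.7 to 85.7 TPM in sham, 83.8 to 106 TPM at day 1 and 48.4 to 62.5 TPM at day 7. Between day 1 and day 7 it fell by 0.94 on the log2 scale (SE 0.104, adjusted p = 9.04e-06), and at day 7 against sham its change was -0.88 (SE 0.104, adjusted p = 6.63e-06), or -0.29 (adjusted p = 0.0832) in log2(TPM + 1). Its day 1 value of 0.06 became a rise of 0.33 (adjusted p = 0.0444) with library sizes alone and 0.46 (adjusted p = 0.0182) in log2(TPM + 1). Dnajc21, a factor of ribosome assembly, had log2 fold changes of -0.34, -0.57 and -0.91, and Dnajc4 of -0.31, -0.38 and -0.69, each past the threshold. Their day 1 calls were lost with library sizes alone, at -0.06 and -0.04, and in log2(TPM + 1), at -0.01 and -0.02, where Dnajc4 made no call at all (-0.11 and -0.13 in the later comparisons).

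By class, of the 28 Hsp members tested 50% rose and 10.7% fell at day 1, 7.14% and 67.9% from day 1 to day 7, and 10.7% and 35.7% at day 7 against sham. For the 38 DnaJ members these were 15.8% and 21.1%, 2.63% and 50%, and 5.26% and 52.6%, and for all genes tested 22.0% and 19.9%, 24.2% and 22.8%, and 30.9% and 28.4%. The day 1 shares of DnaJ genes lie near those of all genes. The medians were 0.26, -0.54 and -0.21 for Hsp genes and 0.03, -0.32 and -0.27 for DnaJ genes. No test compared the classes. Over the 3 comparisons 15 members (22.7%, against 25.4% of all genes) met the threshold in none, and 15 (22.7%, against 9.17%) fell at day 7 against both other groups without a call at day 1. Another 12 (18.2%, against 4.24%) rose at day 1 and fell by day 7 with no call against sham, and 6 (9.09%, against 5.16%) fell in all 3. These tallies are for TMM. Of the last group, Hspa9, Dnajc19, Dnaja3, Dnajc21 and Dnajc4 lost the day 1 call with library sizes alone. In log2(TPM + 1) Dnajc15 lost it as well.

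The wider folding network was read from a list of 59 other chaperone genes and cofactors, of which 57 were tested. At day 1, 22 rose and 11 fell, or 38.6% and 19.3%; from day 1 to day 7, 0 rose and 42 fell, or 0% and 73.7%; and at day 7 against sham, 4 rose and 31 fell, or 7.02% and 54.4%. All genes tested gave 22.0% and 19.9%, 24.2% and 22.8%, and 30.9% and 28.4%, so the day 1 falls are at the all-gene share. With library sizes alone 1 gene rose from day 1 to day 7, and at day 7 against sham 17 rose and 12 fell. The medians were 0.10, -0.48 and -0.31.

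Cryab, the small HSP alpha-B-crystallin that guards desmin, is more abundant than any member at a mean of 4009 TPM. It stood at 2747, 3198, 3239 and 2998 TPM in sham, 6312, 6935, 6803 and 4253 TPM at day 1, and 2927, 2879.8, 3076 and 2742 TPM at day 7. Day 1 hearts stood apart, heart 4 lowest of them, and the other groups overlapped. The log2 fold changes were 0.69 (SE 0.141, adjusted p = 0.00163), -1.29 (SE 0.143, adjusted p = 9.59e-06) and -0.60 (SE 0.141, adjusted p = 0.00213), the last -0.20 (adjusted p = 0.204) with library sizes alone and -0.07 (adjusted p = 0.687) in log2(TPM + 1). The 8 subunits of the cytosolic chaperonin TRiC, which folds actin and tubulin, gave 7 that rose and 0 that fell at day 1 and 0 and 8 from day 1 to day 7, with medians of 0.47 and -0.71. Against sham, 0 rose and 5 fell at day 7 with a median of -0.24, which turned to 0.16 with 3 that rose with library sizes alone and 0.30 with 5 that rose in log2(TPM + 1). For TRiC the shares were 87.5% and 0%, 0% and 100%, and 0% and 62.5%, against 22.0% and 19.9%, 24.2% and 22.8%, and 30.9% and 28.4% of all genes, whose medians were -0.01, 0.02 and 0.03. Their summed TPM was 609 to 701 in sham, 1059 to 1154 at day 1 and 784 to 828 at day 7, with no overlap.

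Of 12 partner genes in the endoplasmic reticulum 9 rose and 1 fell at day 1 (median 1.28), 0 rose and 8 fell from day 1 to day 7 (median -0.69), and 4 rose and 2 fell at day 7 against sham (median 0.29), and these medians kept their sign under the 7 scalings. That is 75% and 8.33%, 0% and 66.7%, and 33.3% and 16.7%, against the same 22.0% and 19.9%, 24.2% and 22.8%, and 30.9% and 28.4% of all genes. Sdf2l1, a partner of BiP, stood at 4.79, 7.94, 9.03 and 4.35 TPM in sham, 41.7, 36.4, 39.1 and 56.8 TPM at day 1, and 19.4, 6.79, 8.01 and 11.7 TPM at day 7. Its day 1 hearts stood apart, and it rose 5.38-fold (log2 fold change 2.43, SE 0.285, adjusted p = 4.33e-05) and then fell by 2.15 (SE 0.276, adjusted p = 3.29e-05). Manf, a secreted factor of this compartment, had changes of 1.94 (adjusted p = 9.48e-05) and -1.65 (adjusted p = 0.000147), Creld2, a secreted partner of disulfide isomerases, 1.77 (adjusted p = 0.000162) and -1.38 (adjusted p = 0.000523), and Hyou1, which exchanges nucleotide on BiP, 1.62 (adjusted p = 0.000117) and -1.46 (adjusted p = 0.00014). None of these 3 met the threshold at day 7 against sham with TMM, but in log2(TPM + 1) Manf (0.75, adjusted p = 0.0337), Creld2 (0.81, adjusted p = 0.0159) and Hyou1 (0.65, adjusted p = 0.0215) did, as did Manf (0.68) and Creld2 (0.78) with library sizes alone.

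The disulfide isomerases Pdia4 and Pdia6 rose at day 1 by 1.60 (SE 0.204, adjusted p = 6.98e-05) and 1.19 (SE 0.175, adjusted p = 0.000162). From day 1 Pdia4 fell by 0.66, a call lost with library sizes alone (-0.53, adjusted p = 0.0519) and in log2(TPM + 1) (-0.48, adjusted p = 0.09). Pdia4 stayed higher at day 7 against sham (0.94, SE 0.202, adjusted p = 0.00106). The Pdia6 value there, 0.42 (adjusted p = 0.0473), fell to 0.17 (adjusted p = 0.211) without day 7 heart 1, and it was also past the threshold no longer without sham heart 1, 2 or 4 (0.37, 0.41 and 0.39), any day 1 heart (0.42 each) or day 7 heart 4 (0.47), or with RLE factors (0.40) or these 2 groups only (0.41, adjusted p = 0.083). Its fall from day 1 to day 7 (-0.77, adjusted p = 0.00235) was lost in log2(TPM + 1) without the filter (-0.55, adjusted p = 0.0702). Serpinh1 (HSP47), the chaperone of collagen, stood at 117, 159, 167 and 108 TPM in sham, 450.3, 428, 451 and 441 TPM at day 1, and 868, 393, 340.4 and 441 TPM at day 7. All AMI hearts stood above all sham hearts, and day 7 heart 1, also highest in fibroblast markers, was far above the rest. It rose at day 1 (log2 fold change 1.36, SE 0.231, adjusted p = 0.000454) and was 1.34 (SE 0.231, adjusted p = 0.000185) above sham at day 7. From day 1 to day 7 it was -0.02 (adjusted p = 0.941), 0.11 with library sizes alone and 0.10 in log2(TPM + 1), but with single hearts left out ran from -0.41 (adjusted p = 0.0144), without day 7 heart 1, to 0.12.

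Of 8 mitochondrial partner genes 0 rose and 5 fell at day 1, 0 and 7 from day 1 to day 7, and 0 and 8 at day 7 against sham, with medians of -0.38, -0.48 and -0.76. Those falls are 62.5%, 87.5% and 100% of the list, against 19.9%, 22.8% and 28.4% of all genes. The signs held under the 7 scalings, though the falls at day 7 against sham numbered 6 with library sizes alone and 4 in log2(TPM + 1). Fewer fell at day 1 in both, where the whole network had fewer falls than this list has with TMM. Clpp at day 1 was -0.09 (adjusted p = 0.51) with library sizes alone, and Clpx -0.33 (adjusted p = 0.0531) in log2(TPM + 1). Clpx and Clpp, the unfoldase and protease of the matrix, had log2 fold changes of -1.12 (SE 0.127, adjusted p = 4.77e-06) and -1.02 (SE 0.0823, adjusted p = 2.56e-07) at day 7 against sham, the first -0.53 in log2(TPM + 1). ERSE letters were in 4 of 47 network genes in the promoter table (8.51%), Calr, Canx, Creld2 and Pdia6, and the heat shock element in 1, Chordc1 (2.13%). These shares were not tested, and the limit given for ERSE in members holds here too.

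Hsf1, the master factor of the heat shock response, stood at 21.7 to 31.1 TPM in sham, 27.3 to 31 TPM at day 1 and 26.5 to 30.8 TPM at day 7, with overlap, and had log2 fold changes of -0.14 (adjusted p = 0.19), -0.23 (adjusted p = 0.0367) and -0.38 (adjusted p = 0.00163). The first turned to 0.12 with library sizes alone and 0.21 in log2(TPM + 1), the last to 0.02 and 0.19, and the second was -0.10 and -0.01 with no call. That second call was also lost without day 1 heart 1 or 3 (-0.24 and -0.19) or day 7 heart 2, 3 or 4 (-0.22, -0.22 and -0.25), or in edgeR without the filter (-0.25, adjusted p = 0.0584). Hsf2 met the threshold in none of the 3 comparisons (0.05, -0.26 and -0.21). Yet from day 1 to day 7 it passed as lower with DESeq2 (-0.29, adjusted p = 0.0391), with RLE factors (-0.28, adjusted p = 0.0429) and on these 2 groups only (-0.27, adjusted p = 0.0384), so this fall rests on the method. It also passed without sham heart 1 or 2 (-0.26 each) or day 7 heart 2 (-0.34), and at day 7 against sham without sham heart 2 (-0.27) or day 7 heart 2 (-0.29). With other hearts left out these 2 values went up to -0.21 and -0.12, without a call. With library sizes alone and in log2(TPM + 1) it rose at day 1 (0.33 each), and its day 7 value against sham turned to 0.19, with no call, and 0.31. Transcript levels of these factors do not show their activity, which is set after translation.

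Bag3, the partner of HSPB8, had changes of -0.09 (adjusted p = 0.361), -0.30 (adjusted p = 0.00496) and -0.39 (adjusted p = 0.000486), but 0.19, -0.18 and 0.01 with library sizes alone and 0.23, -0.07 and 0.16 in log2(TPM + 1), where only the first was called in either, as higher; without the filter log2(TPM + 1) also called the last as higher (0.16, adjusted p = 0.0318). Stip1, which passes clients from HSP70 to HSP90, had 0.46 (adjusted p = 0.00252), -0.89 (adjusted p = 1.14e-05) and -0.43 (adjusted p = 0.00194), the last -0.03 with library sizes alone and 0.12 in log2(TPM + 1), with no call. Fkbp4, an HSP90 partner on steroid receptors, stood at 204, 268, 315 and 259 TPM in sham, 186, 141, 206 and 273 TPM at day 1, and 170.3, 121, 150.3 and 142 TPM at day 7. Day 7 hearts lay below every sham heart, and the fold change was -0.69 (adjusted p = 0.00387) at day 1, -0.69 (adjusted p = 0.0032) from day 1 to day 7 and -1.37 (SE 0.163, adjusted p = 7.15e-06) at day 7 against sham on the log2 scale. Its day 1 value was -0.42 (adjusted p = 0.0588) with library sizes alone, and in log2(TPM + 1) its first and second values were -0.40 (adjusted p = 0.0943) and -0.43 (adjusted p = 0.0785). Fkbp5, its glucocorticoid-induced paralog, spread widely within groups, from 3.95 to 18.9 TPM in sham and 7.83 to 25 TPM at day 1, and met the threshold in none of the 3 comparisons. Its day 7 value against sham, -0.43 (adjusted p = 0.392), turned to 0.27 in log2(TPM + 1).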

How the data were processed

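RNA of 12 whole mouse hearts was sequenced, 4 in each of 3 groups. The authors made cDNA with random hexamers, trimmed reads with Cutadapt, aligned them to the mouse genome (Ensembl GRCm38; mm10 per the labels) with STAR 2.4.0j, and deposited raw read counts for each gene. TPM values were made with RSEM by the authors. For the raw counts, the counting tool, the strand and the treatment of reads with more than 1 match are not stated.

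From the counts, edgeR 4.0.16 (R 4.3.3) fitted 1 quasi-likelihood model with 3 groups, after filterByExpr and with TMM factors, and tested the 3 comparisons, with Benjamini-Hochberg adjustment over all 15306 genes tested. SE is the absolute log2 fold change divided by the square root of F. Alternatives were DESeq2 1.42.0, RLE factors, library sizes alone, no filter, 2 groups only, a replicate block, limma 3.58.1 on log2(TPM + 1) and on log2(TPM + 0.1) for genes reaching 1 TPM in 4 hearts or more, limma without that filter, a 2-fold minimum, and each heart left out in turn. The HSP90 ratio was tested by exact permutation of hearts with scipy 1.17.1 and Python 3.11.15. Figures were drawn with matplotlib 3.10.9.

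Genes named by rule are members and network genes past the threshold with a 2-fold change in any comparison, the 10 members with the smallest adjusted p in each, the 10 with the highest mean TPM, and a short list of well-known chaperones. Genes outside the rule (Hspa2, Dnaja1, Dnajb11, Dnajb12, Dnajb14, Dnajc1, Dnajc3, Dnajc10 and other single mentions) were chosen after their values were seen. Members and lists were chosen with earlier results of these data known. The 13 pseudogene rows were left out by their symbol. Of these rows 1, Hspd1-ps3, passed the filter. Promoter sequence, start sites and site coordinates come from RefSeq (GRCm38.p6). Gene positions, exons, overlaps and shared stretches come from the GENCODE annotation of GRCm38, the assembly named by the authors.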

Additional observations from a re-analysis of the deposited data

Results flagged for a closer look

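A heart was listed when it stood far from the other 3 of its group by Dixon's gap test. Of 144 groups looked at, 13 had such a heart, where about 5% would by chance. Hspb1 was high in sham heart 3 (561.14 TPM) and day 7 heart 1 (580.30 TPM). Day 1 heart 4 was high for Hspa5 (765.13 TPM), Dnajb9 (52.18 TPM), Hspa9 (414.98 TPM), Hyou1 (69.38 TPM) and Manf (332.01 TPM). Hspa1l was high in day 1 heart 2 (13.29 TPM), Dnajb1 in sham heart 2 (9.61 TPM) and Dnajc4 in day 7 heart 3 (44.52 TPM), while Hspa9 was low in day 7 heart 1 (252.16 TPM). Summed member TPM was high in sham heart 3 (7034) and day 1 heart 2 (11688).

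Another 5 genes were listed because day 1 and day 7 differed from sham in opposite directions, each past the threshold. The difference between the days was tested as day 7 against day 1, with log2 fold changes of -1.34 for Hspb7, -1.39 for Hspb2, -0.98 for Dnajb9, -1.29 for Cryab and -0.89 for Stip1. The lower day 7 side lost its call with library sizes alone for Hspb7, Dnajb9, Cryab and Stip1, as given in the report or below. For Hspb2 it was lost only in the limma fits on TPM, which change more than the scaling.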

How the results depend on the processing

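Library sizes alone and the limma fits on TPM moved most results. The limma fits change unit, model and filter at once, so their differences from TMM are not those of scaling alone. Members that rose and fell at day 1 numbered 40 and 4 with library sizes alone, and 38 and 3 in each of the 3 limma fits on TPM. From day 1 to day 7, 7 rose with library sizes alone; limma gave 26 calls (9 rose, 17 fell) on log2(TPM + 1), 25 (9 and 16) on log2(TPM + 0.1) and 26 (10 and 16) without the filter. At day 7 against sham library sizes alone gave 27 that rose and 14 that fell, and limma 32 and 8, 33 and 7, and 34 and 6. With a 2-fold minimum 6, 6 and 2 members remained.

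Network genes at day 1 had 2 that fell with library sizes alone and 1 in each limma fit, and 34 that rose on log2(TPM + 1). From day 1 to day 7, 1 rose with library sizes alone, and limma gave 2 that rose and 23 that fell, 2 and 22, and 1 and 20. At day 7 against sham library sizes alone gave 17 and 12, and limma 26 and 6, 26 and 6, and 22 and 5.

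These log2 fold changes turned direction (library sizes alone, then the 3 limma fits): Hspa9 at day 1, 0.04, 0.08, 0.08 and 0.08; Bag3 at day 1, 0.19, 0.23, 0.23 and 0.23. At day 7 against sham: Dnajb9 0.02, 0.15, 0.15 and 0.15; Hspb8 0.13, 0.28, 0.29 and 0.28; Hsf1 0.02, 0.19, 0.20 and 0.19; Bag3 0.01, 0.16, 0.16 and 0.16; Hspa8 0.20, 0.40, 0.40 and 0.40; Hsf2 0.19, 0.31, 0.35 and 0.31. Stip1 kept its sign with library sizes alone (-0.03) and turned in limma (0.12, 0.12 and 0.12). Each of these was called in the main fit or in a fit where it turned; values that turned with no call in either, such as those of Hspb1, Hspa5 and Hspb6, stand in the report.

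The HSP90 ratio at day 1 ran from 0.91 to 1.20 with a heart left out, and at day 7 against sham from 1.04 to 1.32; with 3 hearts against 4 no exact test can reach 0.05. Genes near the threshold lost or gained calls with single hearts left out, as named in the report.

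Hearts of different groups share only a number. Of 12 same-numbered pairs, correlations ran from -0.244 to 0.229 and 4 were over 0.1, and a heart correlated best with its own number 5 of 24 times. With this replicate block, members that rose and fell numbered 18 and 10, 3 and 38, and 6 and 29, and network genes 22 and 11, 0 and 39, and 3 and 31. The block made a call for Hspa1b at day 7 against sham (1.16, adjusted p = 0.0213), and Hspa9 at day 1, Hspa13 and Hsf1 from day 1 to day 7, and Pdia6 at day 7 against sham had none.

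With 4 hearts a group and 23204551 counts in the smallest library, small changes and genes near a few counts, such as Dnajb13, cannot be settled. Sham hearts carry no stated day, regions of the heart were joined, and cell mixture changed with the groups.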
